A study of Rattus norvegicus with 60 samples.

Results

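AP-1 is a transcription factor made of pairs of basic leucine zipper proteins from the Fos, Jun and ATF families, and Egr1 is a zinc finger transcription factor induced by many of the same stimuli. The 8 genes described here are Fos, Fosb, Fosl1, Jun, Junb, Jund, Atf3 and Egr1, chosen by a fixed list of Ensembl identifiers, and all 8 were found among the 23918 genes of the mRNA count files. The names come with that list. The files pair no identifier with a symbol, and the names could not be checked against an annotation. The series title proposes AP-1 as a possible hub of the response to inflammatory pain, which is the reason to look at these genes.

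The mRNA libraries were made from dorsal root ganglia of SD rats. The control group is 10 libraries from untreated rats, and the CFA group is 10 libraries from rats given 0.1 mL of complete Freund's adjuvant under the skin of 1 foot. Complete Freund's adjuvant is an oil suspension of killed mycobacteria that causes lasting local inflammation. The controls thus had no injection of oil alone, and the labels give no time after injection, sex, age, ganglion level or side. No label says whether a library holds 1 rat or pooled ganglia, so p-values measure the spread between these libraries. The libraries held between 15607906 and 21611397 counts. Libraries CFA 3 and controls 1, 3 and 10 stood apart on the first 2 principal components of all genes. No pair of libraries of a group agreed within sampling noise (lowest chi-square of 9.63 per degree of freedom, CFA 6 and CFA 7). Marker genes of neurons, glia and other cell types could not be matched to identifiers, so the tissue label was not checked. In such bulk tissue, fewer cells of a type and less RNA per cell cannot be told apart.

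Fos, Fosb, Junb and Egr1 are immediate early genes: in neurons their transcription starts within minutes of calcium entry or growth factor signalling, through serum response factor and the cyclic AMP response element binding protein. Jund is expressed at a steady level in many cells, while Jun and Atf3 are known to rise in sensory neurons whose axons have been injured.

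The promoters of Egr1, Jund and Junb are shown because Egr1 was the member nearest to Fos across libraries and Junb and Jund had the highest Pearson's r of any pair with all 20 libraries. RefSeq promoter sequences (GRCr8) were found for 5 of the 8 genes, namely Fosb, Fosl1, Junb, Jund and Egr1. Each runs 5′ to 3′ on the gene's strand, from 250 bases before to 50 bases after the start, and the capitals mark matches to the motifs named after the sequences.
Egr1, chr18:26736828-26737127, plus strand: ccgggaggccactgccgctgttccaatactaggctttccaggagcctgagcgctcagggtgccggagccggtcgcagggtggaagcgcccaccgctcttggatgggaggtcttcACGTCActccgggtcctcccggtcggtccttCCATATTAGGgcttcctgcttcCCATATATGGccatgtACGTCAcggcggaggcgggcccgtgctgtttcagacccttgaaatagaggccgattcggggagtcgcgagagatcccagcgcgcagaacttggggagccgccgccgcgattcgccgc
Jund, chr16:18769722-18770021, minus strand: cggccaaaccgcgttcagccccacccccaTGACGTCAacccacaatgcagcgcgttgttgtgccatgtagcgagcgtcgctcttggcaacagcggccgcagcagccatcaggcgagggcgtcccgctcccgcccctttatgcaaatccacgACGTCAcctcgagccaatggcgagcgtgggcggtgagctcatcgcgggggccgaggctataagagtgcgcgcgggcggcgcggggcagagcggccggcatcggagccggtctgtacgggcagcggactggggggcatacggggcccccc
Junb, chr19:40080876-40081175, plus strand: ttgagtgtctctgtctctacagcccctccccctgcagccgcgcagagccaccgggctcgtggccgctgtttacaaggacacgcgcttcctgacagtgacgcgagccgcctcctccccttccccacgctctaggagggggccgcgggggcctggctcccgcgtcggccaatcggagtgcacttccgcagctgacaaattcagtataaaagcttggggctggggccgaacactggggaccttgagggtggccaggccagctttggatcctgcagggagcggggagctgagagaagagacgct

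The Egr1 window held 2 CArG boxes, the letters bound by serum response factor, at -105 to -96 and -83 to -74 from the start. A CArG box was found in 1.64% of 33469 promoters of this length. The cyclic AMP response element TGACGTCA was searched on both strands and stood at -221 to -214 in Jund, against 1.83% of all promoters. Its core TGACGT, which overlaps the full element, stood on either strand at -136 to -131 and -67 to -62 in Egr1 and once more at -99 to -94 in Jund, against 7.94% of all promoters. The AP-1 letters TGACTCA and the EGR letters GCGGGGGCG, both searched on both strands, were in none of the 5 windows, and in 4.63% and 2.73% of all promoters. The Junb window held none of these motifs; TATAAA, not in capitals, stood there at -49 to -44, against 14.2% of all promoters. These are letter matches only.

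Levels are given as CPM, counts scaled to a common library size with TMM factors, so they compare libraries for 1 gene and not genes with each other. Fos (ENSRNOG00000008015), whose protein pairs with a Jun protein to form AP-1, had a lowest, median and highest level of 1.77, 2.61 and 5.10 CPM in controls and of 1.84, 3.17 and 7.42 CPM in CFA. The groups overlapped over most of their range. Among controls, Fos lay between 4.80 and 5.10 CPM in controls 6, 7 and 8 and at 3.73 CPM in control 10. The remaining controls lay at or below 2.71 CPM. In CFA the Fos levels fell apart into a set of 4 between 4.96 and 7.42 CPM (CFA 1, 2, 3 and 8) and 6 at or below 3.28 CPM. Fosb (ENSRNOG00000046667), which yields a stable truncated form that builds up with repeated stimulation, was the scarcest of the 8 in counts, with between 3 and 83 per library. It ranged from 0.175 over a median of 0.581 to 1.05 CPM in controls, and from 0.346 over 0.661 to 4.84 CPM in CFA. CFA 1 at 4.84 CPM and CFA 8 at 2.23 CPM were the only 2 libraries above every control, and the other 8 CFA libraries lay within the control range. Fosl1 (ENSRNOG00000020552), which lacks the transactivation domain of Fos and is known as a slower responder, ranged from 2.01 over 3.61 to 4.42 CPM in controls and from 2.25 over 3.29 to 4.13 CPM in CFA. No CFA library lay outside the control range of Fosl1.

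**Figure D1:**
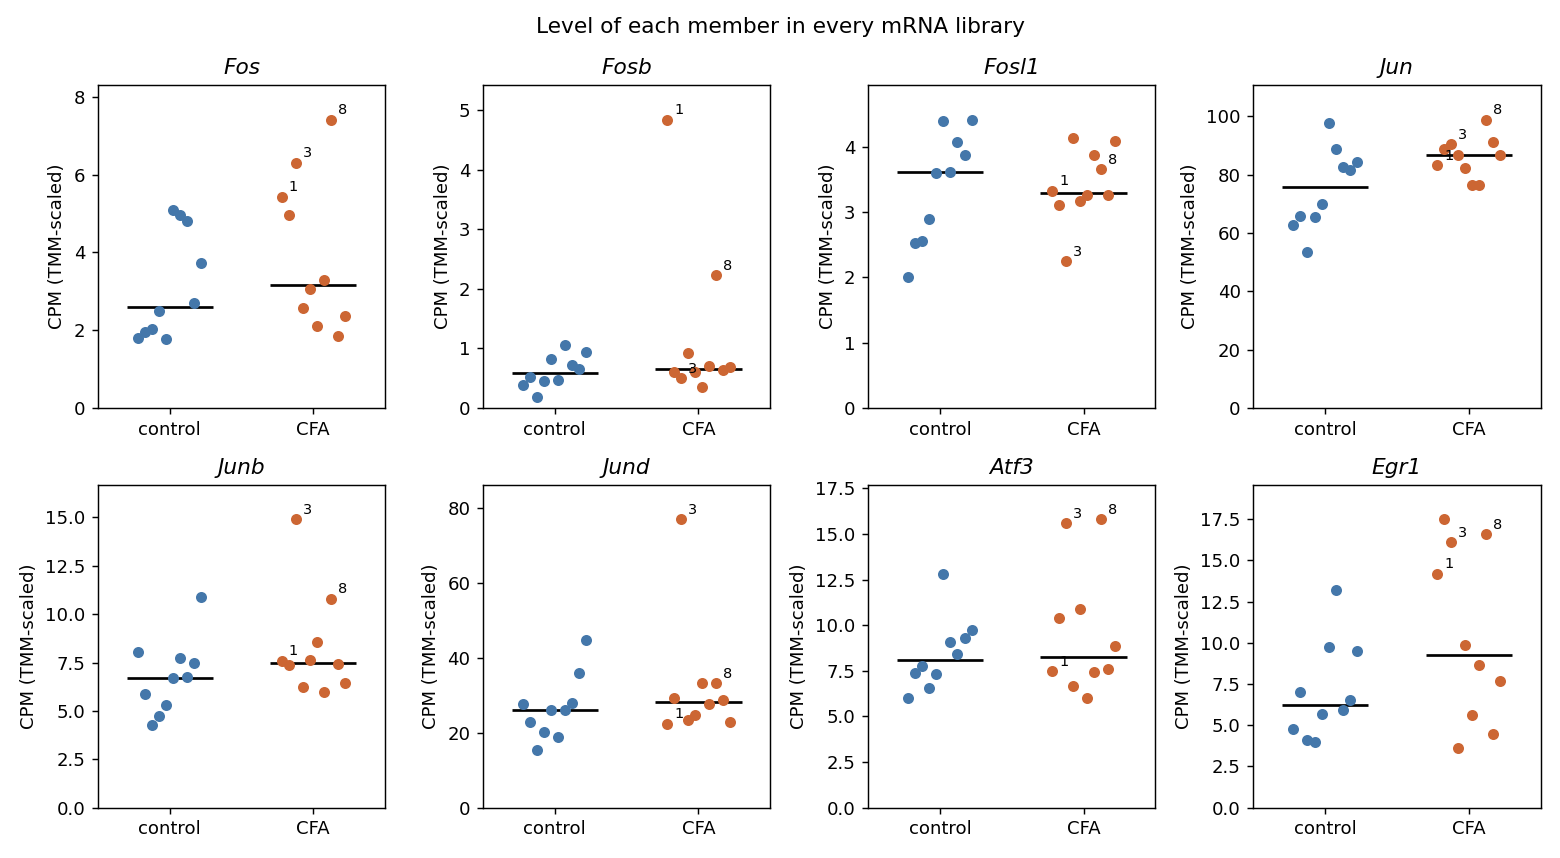
TMM-scaled CPM (vertical axis, linear from 0) of each of the 8 genes in 10 control and 10 CFA libraries, 1 point per library, with the group median as a bar and the numbers marking CFA 1, 3 and 8. The groups overlap for every gene, and the highest CFA points of Fosb (4.84 CPM) and Jund (77.0 CPM) each belong to a single library.

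Jun (ENSRNOG00000026293), the main partner of Fos and a factor known for its rise in axotomised sensory neurons, ranged from 53.6 over 75.8 to 97.6 CPM in controls and from 76.6 over 86.8 to 98.9 CPM in CFA. All 10 CFA libraries lay above the control median of Jun, while only CFA 8 lay above the highest control. Controls 1 to 5 lay between 53.6 and 70.0 CPM, below every CFA library, and controls 6 to 10 between 81.7 and 97.6 CPM, within the CFA range. No label sets these controls apart, and no test was made between them. Junb (ENSRNOG00000042838), a Jun family member with weaker transactivation than Jun, ranged from 4.25 over 6.72 to 10.9 CPM in controls and from 6.0 over 7.5 to 14.9 CPM in CFA. Jund (ENSRNOG00000019568), often described as growth restraining, ranged from 15.3 over 26.1 to 44.7 CPM in controls and from 22.4 over 28.2 to 77.0 CPM in CFA. CFA 3 was the 1 library above every control for Jund, and also the 1 above every control for Junb.

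Atf3 (ENSRNOG00000003745), a stress-induced member of the ATF family that is widely used as a marker of injured sensory neurons, ranged from 6.03 over 8.09 to 12.8 CPM in controls and from 6.03 over 8.25 to 15.8 CPM in CFA. CFA 8 at 15.8 CPM and CFA 3 at 15.6 CPM were above every control, and the medians of the groups were nearly equal. Egr1 (ENSRNOG00000019422) ranged from 3.98 over 6.22 to 13.2 CPM in controls and from 3.60 over 9.28 to 17.5 CPM in CFA. CFA 1, 2, 3 and 8 were above every control for Egr1, at between 14.2 and 17.5 CPM, and CFA 4 was below every control. These 4 are the same libraries that were highest in CFA for Fos.

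Seen by library, CFA 8 was among the 5 highest of 20 for 7 of the 8 genes, all but Fosl1. CFA 3 was among the 5 highest for 6 genes and among the 5 lowest for Fosl1. At the other end, controls 3 and 4 were each among the 5 lowest for 7 genes and control 1 for 6, although control 1 was among the 5 highest for Junb.

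**Figure D2:**
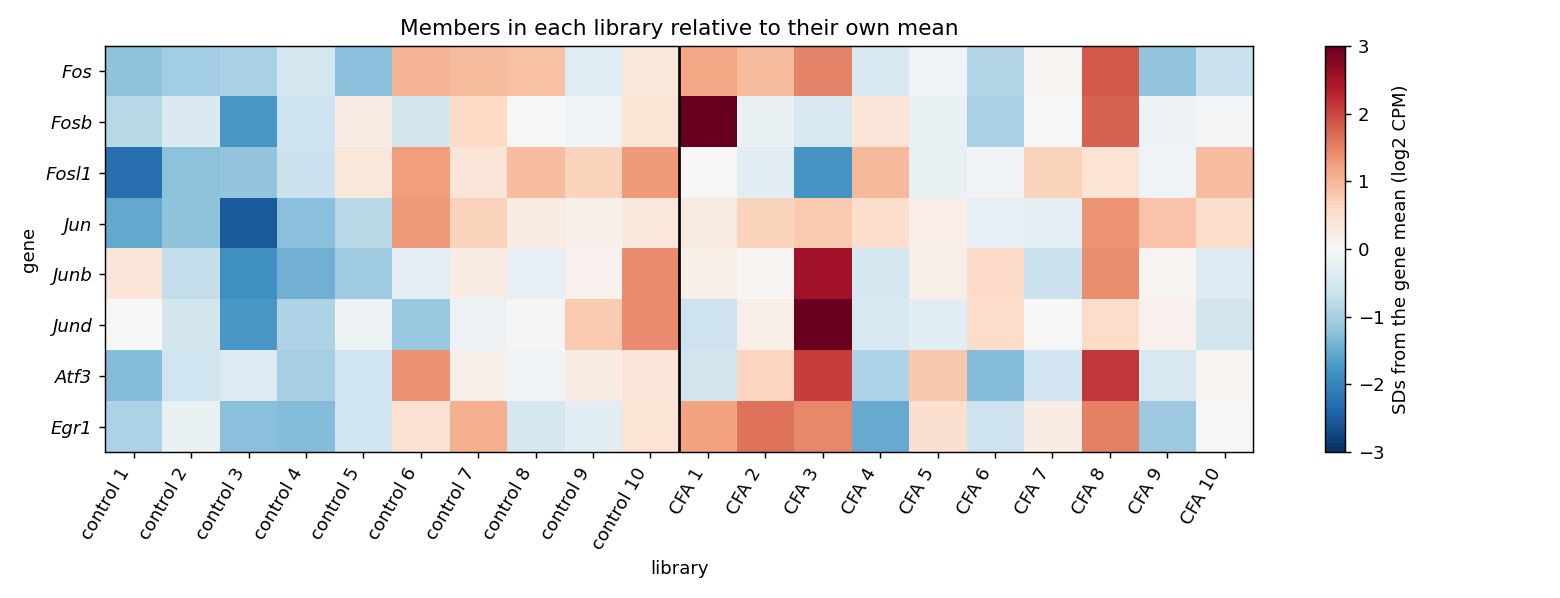
Each cell gives 1 gene (rows) in 1 library (columns, controls left of the line), coloured by its distance from the gene's mean log2 CPM over the 20 libraries in SDs, with colours ending at 3 SDs. CFA 8 is high for 7 of the 8 genes, and controls 3 and 4 are among the 5 lowest for 7 of them.

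The comparison of CFA with control asked whether AP-1 genes differed in the ganglia of injected rats. None of the 8 passed the threshold of edgeR's quasi-likelihood test after Benjamini-Hochberg adjustment over 15124 genes tested, where 0.0331% of all genes passed; each of the 8 had an adjusted p of 1, and DESeq2 called 0 as well. At an unadjusted p under 0.05 there were 2 of 8, Fosb and Jun, both higher in CFA, beside 2.08% of all genes in either direction and 1.18% higher; with DESeq2 it was 1, Jun. The count was 0 without control 1, 2, 3 or 4 or CFA 8, 3 without control 7, control 10 or CFA 6, and 0 with the stricter filter, the replicate block or quality weights. All 8 genes passed the filter on low counts. Their log2 fold changes, CFA minus control, were all above 0, as were 57.1% of all genes; with sample quality weights 6 of 8 were, with Fos and Atf3 below 0, and with upper-quartile factors or surrogate variables 7 were, with Fosl1 below 0. Their median was 0.28, beside 0.015 for all genes tested. Of the 28 pairs of these genes, 15 co-varied across libraries, as described further on, so the 8 directions are not all independent of each other.

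Among the Fos family, Fosb had a control mean of 0.617 ± 0.268 CPM and a CFA mean of 1.21 ± 1.38 CPM (SD, n = 10 each), for a log2 fold change of 0.95 (SE 0.44, 95% interval 0.031 to 1.88, edgeR adjusted p = 1). Without CFA 1 this was 0.38, and DESeq2, which replaced the count of CFA 1 as an outlier, gave 0.36. With sample quality weights it was 0.145. For Fos the control mean was 3.14 ± 1.38 CPM and the CFA mean 3.94 ± 1.95 CPM, so that the log2 fold change was 0.32 with a 95% interval from -0.27 to 0.91, and of 0.17 without CFA 8. For Fosl1 the means were 3.40 ± 0.847 and 3.41 ± 0.559 CPM, giving a log2 fold change of 0.0075 and an interval from -0.30 to 0.31. The data thus leave room for a change of Fos between 0.829-fold and 1.88-fold, and of Fosl1 between 0.813-fold and 1.24-fold.

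Among the Jun family, Jun had a control mean of 75.3 ± 13.7 CPM and a CFA mean of 86.2 ± 6.82 CPM, a log2 fold change of 0.20 (SE 0.091, 95% interval 0.0067 to 0.38, edgeR adjusted p = 1). It was 0.12 without CFA 3 and controls 1, 3 and 10. The means of Junb were 6.77 ± 1.93 and 8.29 ± 2.69 CPM, for a log2 fold change of 0.29 (-0.079 to 0.66), and of 0.16 without CFA 3. Those of Jund were 26.6 ± 8.58 and 32.3 ± 16.2 CPM, for a log2 fold change of 0.28 (-0.17 to 0.73), and of 0.040 without CFA 3. With sample quality weights the log2 fold changes were 0.096 for Jun, 0.17 for Junb and 0.14 for Jund.

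Atf3 had a control mean of 8.43 ± 1.95 CPM and a CFA mean of 9.68 ± 3.52 CPM, for a log2 fold change of 0.20 (95% interval -0.18 to 0.57), of 0.091 without CFA 8 and of 0.097 without CFA 3. An Atf3 level above 1.49-fold of control lies outside this interval. For Egr1 the means were 7.05 ± 2.94 and 10.4 ± 5.27 CPM and the log2 fold change was 0.56 (-0.042 to 1.17), the second highest of the 8. It lay between 0.45 and 0.50 without CFA 1, 2, 3 or 8 (each left out singly), and 0.086 with sample quality weights. For Egr1, 7 of 10 CFA libraries lay above the control median, and 3 of 10 controls lay above the CFA median.

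**Figure D3:**
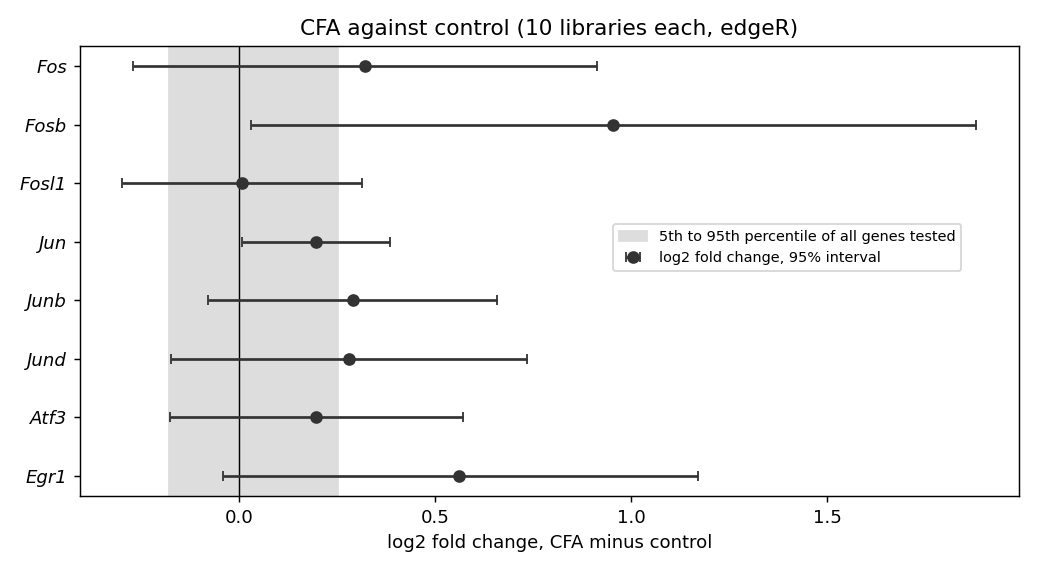
Log2 fold change (horizontal axis, CFA minus control) of each gene with its 95% interval from the edgeR fit over 10 libraries per group, and in grey the 5th to 95th percentile of all 15124 genes tested (-0.18 to 0.25). Intervals of Fosb and Jun begin just above 0 and the other 6 include it.

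The libraries of a group differed more for some members than for others. The biological coefficient of variation, the spread left after counting error, was 0.632 for Fosb, 0.444 for Egr1, 0.431 for Fos and 0.339 for Jund, and between 0.151 and 0.281 for Jun, Fosl1, Junb and Atf3. Set against the trend for genes of the same abundance, Fosb was at 1.58 times, Jund at 1.52 times and Egr1 at 1.51 times, and between 91.6% and 92.7% of all genes tested had a lower ratio. Fosl1 was at 0.568 times the trend, with 21.9% of genes lower. Counting error alone gives a coefficient of variation of 24.8% for Fosb and of at most 12.9% for the other 7. Over the 20 libraries it was 14.8% for Jun, 20.5% for Fosl1, between 31.4% and 51.5% for Atf3, Junb, Jund, Fos and Egr1, and 111% for Fosb. The values of Fosb and Jund each include 1 far library. For Fosb the coefficient was 43.5% in controls and 115% in CFA, with CFA 1 at 4.84 CPM. For Jund it was 32.3% in controls and 50.2% in CFA, with CFA 3 at 77.0 CPM.

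Jun varied less in CFA than in controls, with an SD of log2 CPM of 0.114 against 0.268 (two-sided permutation test of absolute deviations from the group median, p = 0.0029, adjusted p = 0.0232 over 8 genes). This call was lost when any single control library, or CFA 2, 4 or 10, was left out (adjusted p between 0.0515 and 0.531), and with a ratio of variances (adjusted p = 0.0558). The SDs in these cases stayed between 0.225 and 0.283 in controls and between 0.114 and 0.121 in CFA. The control SD of Jun includes the split of controls 1 to 5 (53.6 to 70.0 CPM) from controls 6 to 10 (81.7 to 97.6 CPM). The part of this split in the difference of spread was not tested. The share of all genes that vary less in CFA was not measured. The other 7 genes had adjusted p-values of at least 0.452.

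Co-variation was then followed over all 20 libraries as Pearson's r of log2 CPM for the 28 pairs of genes. Of these, 15 pairs passed the threshold (permutation p, Benjamini-Hochberg over 28 pairs), all with a positive r of 0.502 or more. An r of at least 0.502 was reached by 15.3% of all pairs of tested genes, since whole sets of genes shift together between these libraries. The 6 pairs among Fos, Jun, Atf3 and Egr1 all passed, with r between 0.595 and 0.823. With Spearman's rho 8 of 28 pairs passed, 7 of them among the 15. For rho the share of all pairs of tested genes was not measured.

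Egr1 followed Fos most closely, with r = 0.823 (permutation p = 2e-05, adjusted p = 0.00028) and rho = 0.780 (p = 0.00013, adjusted p = 0.0035). It was 0.700 within controls (p = 0.0283), 0.893 within CFA (p = 0.00107), and 0.756 without CFA 3 and CFA 8, the libraries farthest from the median of Fos. Of 15123 other genes tested, Egr1 ranked at 4 by r with Fos, and Fos ranked at 3 by r with Egr1. Within controls the pair missed the threshold after adjustment (adjusted p = 0.0609), and control 8, high in Fos at 4.80 CPM, had Egr1 at 5.92 CPM, below the control median.

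Atf3 had r = 0.754 with Fos (permutation p = 0.00011, adjusted p = 0.00103; rho = 0.719, p = 0.00063) and r = 0.739 with Egr1 (permutation p = 0.00015, adjusted p = 0.00105; rho = 0.753, p = 0.00025). Without CFA 3 and CFA 8 these were 0.605 and 0.627. With Fos it was 0.763 within controls and 0.745 within CFA, and with Egr1 0.713 and 0.737. Jun had r = 0.666 with Fos (permutation p = 0.00114, adjusted p = 0.00638; rho = 0.650, p = 0.00259), at 0.852 in controls and 0.457 in CFA (permutation test of the difference, adjusted p = 0.203), and at 0.596 without CFA 3 and CFA 8. For Fos, Jun and Atf3, controls 1 to 5 lay wholly below controls 6 to 10, while for Egr1 they overlapped. The part of this split in the r values within controls was not tested. Among 15123 other genes, Atf3 ranked at 28 and Jun at 185 by r with Fos. Junb ranked at 689, Fosb at 959, Jund at 2697 and Fosl1 at 3990. Fosb had r = 0.531 with Fos (permutation p = 0.0106, adjusted p = 0.0229), but rho was 0.427 (p = 0.0622, adjusted p = 0.134); within controls r was 0.470 and within CFA 0.527.

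Junb and Jund had the highest Pearson's r of the 28 pairs with all libraries, r = 0.868 (permutation p = 1e-05, the smallest these permutations can give, adjusted p = 0.00028) and rho = 0.708 (p = 0.00057, adjusted p = 0.00441). It was 0.839 within controls, 0.884 within CFA, and 0.716 without CFA 3 and control 3. By rho it came after Fos with Egr1, Atf3 with Egr1 and Fos with Atf3. Jund ranked at 3 among all genes by r with Junb, while Junb ranked at 120 by r with Jund. Jund itself had r of at most 0.446 with Fos, Fosb, Fosl1, Jun, Atf3 and Egr1, and none of these 6 pairs passed the threshold. Junb, by contrast, also passed with genes other than Jund, with r = 0.619 with Egr1 (permutation p = 0.00278, adjusted p = 0.0123; rho = 0.517, p = 0.0207, adjusted p = 0.0643) and 0.567 with Fos (permutation p = 0.00772, adjusted p = 0.0197; rho = 0.469, p = 0.0374, adjusted p = 0.0969). By r with Junb, however, Egr1 ranked at 1403 and Fos at 2038 of 15123 genes. Both r values lay below 0.686, the 95th percentile of all genes with Junb. Junb itself ranked at 301 by r with Egr1 and at 689 by r with Fos. Without the 2 libraries farthest from the median of Fos, CFA 3 and CFA 8, Fos and Junb were at 0.333 (permutation p = 0.18), and Junb and Egr1 were at 0.487 without CFA 3 and control 3, those farthest from the median of Junb.

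**Figure D4:**
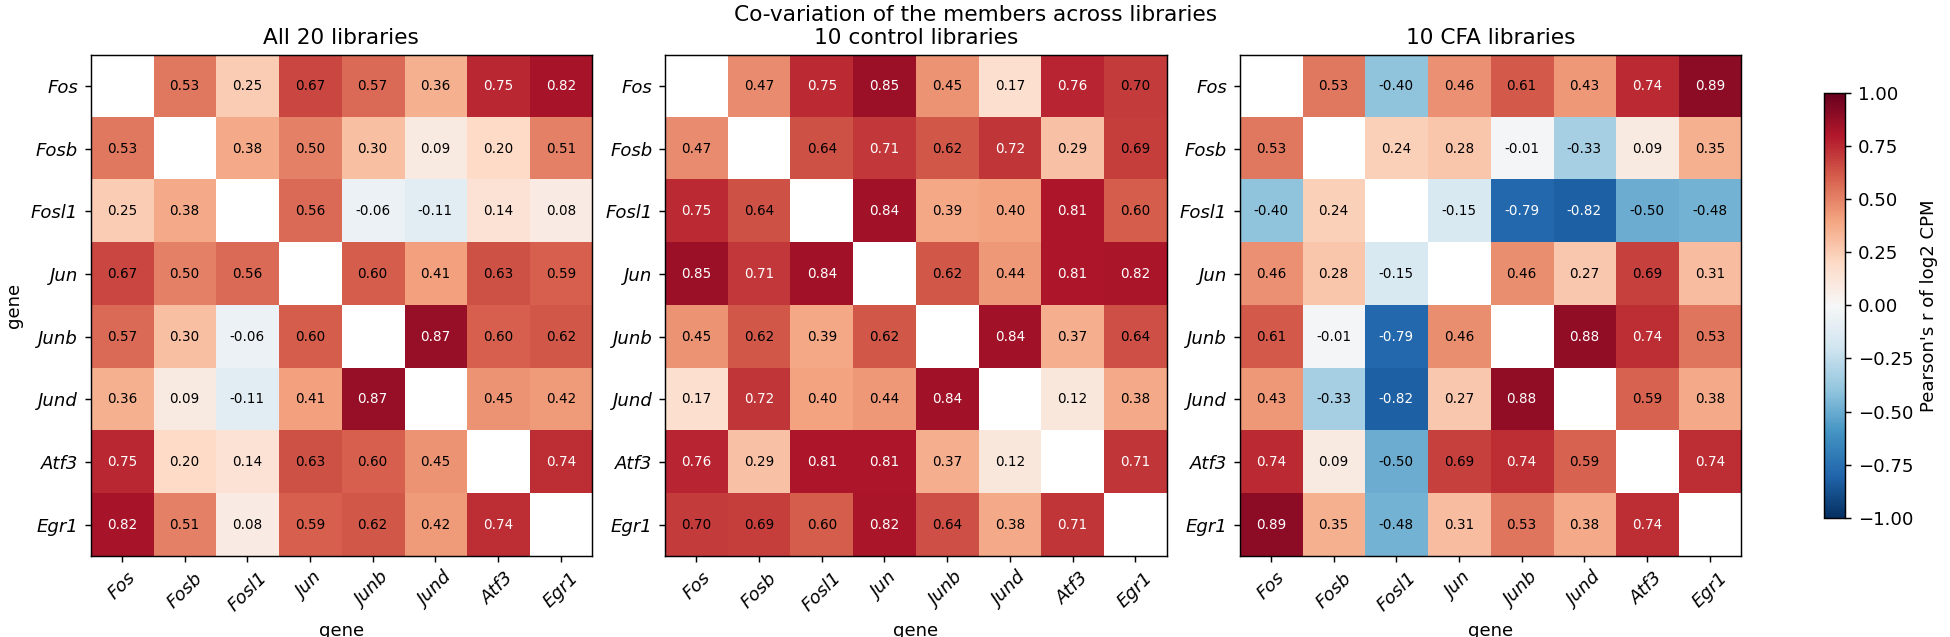
Pearson's r of log2 CPM for each pair of genes (rows and columns) over all 20 libraries, the 10 controls and the 10 CFA libraries, on a colour scale from -1 to 1. Fos with Egr1 and Junb with Jund are high in all 3 panels, while the Fosl1 row is positive in controls and mostly negative in CFA.

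The r values of Fosl1 differed between the groups. In controls all 7 of its r values were above 0, among them 0.842 with Jun, 0.811 with Atf3 and 0.746 with Fos, while in CFA 6 of 7 were below 0, at -0.15, -0.50 and -0.40 for these genes. Controls 1 to 5 lay wholly below controls 6 to 10 for all 4 of these genes. For Fosl1 they lay at 2.01 to 3.60 against 3.62 to 4.42 CPM, for Fos at 1.77 to 2.50 against 2.71 to 5.10 CPM and for Atf3 at 6.03 to 7.75 against 8.42 to 12.8 CPM; the values of Jun are given above. The part of this split in the control r values was not tested. A permutation test of the difference, added after seeing the data, passed for 4 of 28 pairs, all with Fosl1, namely Jun and Atf3 (adjusted p = 0.00952 each) and Fos and Egr1 (adjusted p = 0.0456 each). The test removed group means but did not scale the spread, so a difference in spread can also affect its p-values. The SD of log2 CPM was 0.374 in controls and 0.246 in CFA for Fosl1, and 0.268 and 0.114 for Jun. The part of spread in these calls was not tested. How often pairs of genes outside the 8 differ in this way was not measured, so the count has no background. The calls changed with single libraries. There were 0 of 28 without control 1, which had the lowest Fosl1 at 2.01 CPM, or without control 3. Only 1 passed without CFA 3, and 2 passed without any one of controls 4, 6 and 10 or of CFA 1, 2, 4, 7 and 10. In the order Fos, Jun, Atf3 and Egr1, the difference of Fisher's z was -1.39, -1.38, -1.68 and -1.22 with all libraries, -1.32, -1.53, -1.49 and -1.18 without control 1, and -1.33, -1.44, -1.73 and -1.13 without control 3. Without CFA 3 these differences were smaller, at -1.09, -1.18, -1.25 and -1.06. The r within CFA was then -0.121, 0.0451, -0.115 and -0.35 in the same order. Over all 20 libraries Fosl1 and Jun had r = 0.563 (permutation p = 0.00986, adjusted p = 0.0229; rho = 0.412, p = 0.0728, adjusted p = 0.136), and r was 0.674 without control 1 and CFA 3.

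**Figure D5:**
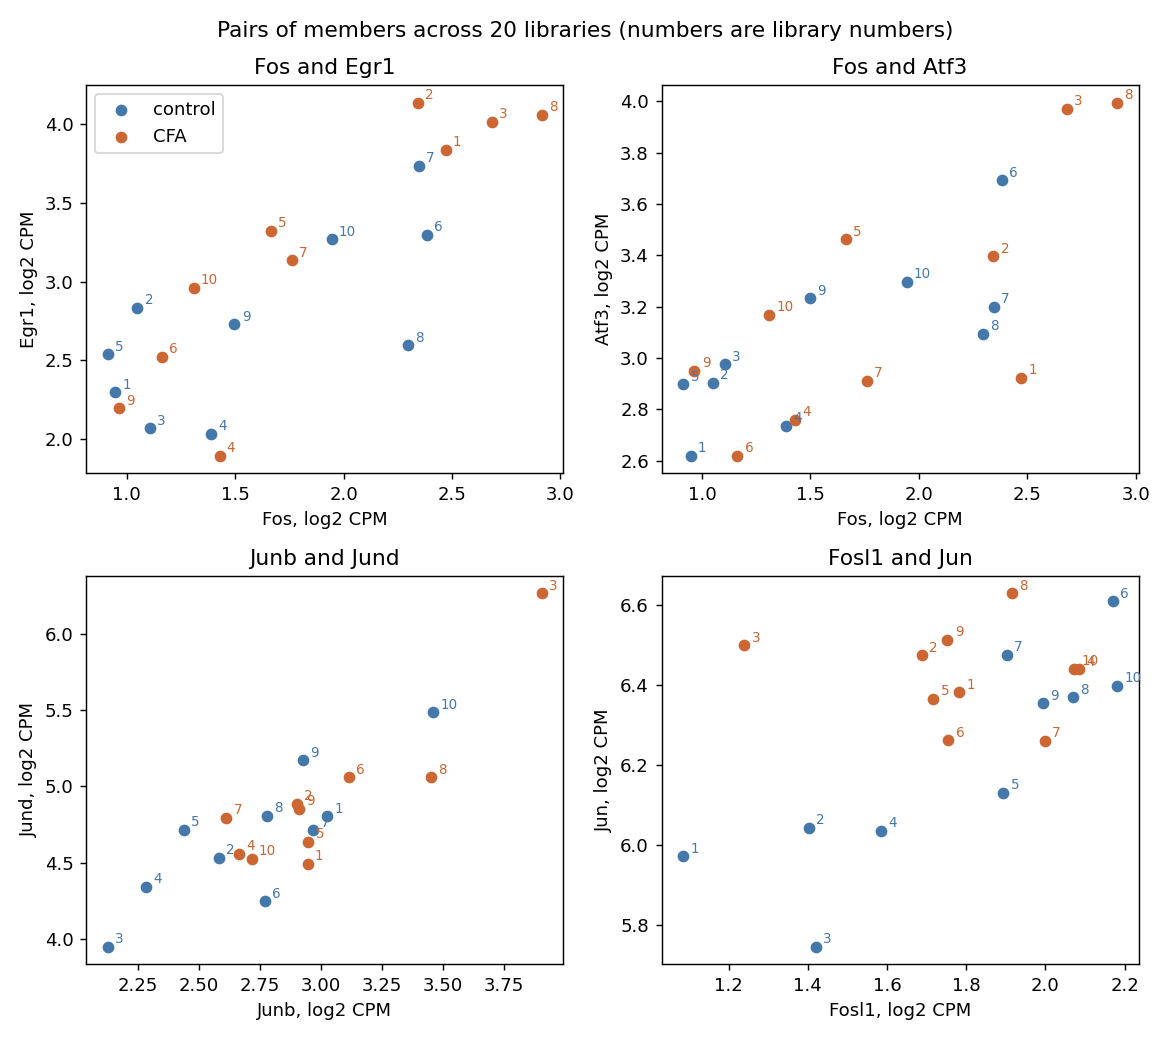
Log2 CPM of 4 pairs of genes, 1 point per library with its number, controls in blue and CFA in orange. CFA 3 and CFA 8 lie at the upper end for Fos with Egr1 and Fos with Atf3, and CFA 3 is the far point of Junb with Jund. For Fosl1 with Jun, controls 1 to 5 lie below controls 6 to 10 on both axes. The r of this pair was 0.842 in controls and -0.153 in CFA.

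No r of sequencing depth with the 8 genes passed the threshold over the 20 libraries (r between -0.18 and 0.25, permutation adjusted p of at least 0.952). Depth itself differed between groups, with a mean of 16669493 counts (SD 1087471) for the 10 controls and of 18535076 counts (SD 1595060) for the 10 CFA libraries. Within CFA, Egr1 had r = -0.69 with depth (permutation p = 0.0307, not adjusted) and Atf3 r = -0.53 (permutation p = 0.116), while within controls these were 0.036 and 0.027. The first principal component of all genes, which carries 40.5% of their variance and on which CFA 3 and control 10 lie farthest out, moved with Jund (r = -0.80, permutation p = 0.00016, adjusted p = 0.00256; rho = -0.69, p = 0.00104) and Junb (r = -0.73, permutation p = 0.00054, adjusted p = 0.00325; rho = -0.51, p = 0.0244). Without CFA 3 and control 10 these were -0.40 and -0.37 (permutation p = 0.0957 and 0.127). Atf3 also passed, at r = -0.54 (permutation p = 0.0149, adjusted p = 0.0445; rho = -0.34, p = 0.14), and at -0.30 without them. Fos and Egr1 had r of -0.37 and -0.40 with it (adjusted p = 0.155 and 0.122). When that component was removed, 15 pairs passed, 13 of them the same, with Fos and Egr1 at 0.793 and Junb and Jund at 0.696. The share of all pairs of tested genes with such r values after this removal was not measured. The second component, with controls 1 and 3 farthest out, moved with Jun (r = 0.737, permutation p = 0.00061, adjusted p = 0.00325; rho = 0.592, p = 0.00693) and Fosl1 (r = 0.639, permutation p = 0.00311, adjusted p = 0.0124; rho = 0.499, p = 0.0272), at 0.457 and 0.313 without these controls (permutation p = 0.0543 and 0.204). Fos passed as well, at 0.518 (permutation p = 0.0167, adjusted p = 0.0445; rho = 0.377, p = 0.1), and at 0.399 without them. The components were computed from all tested genes, and the share of those genes that move with them in this way was not measured. What these components stand for, and their part in the co-variation, was not tested.

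Without CFA 3 and controls 1, 3 and 10, 5 of 28 pairs passed, all among the 15 (adjusted p = 0.0188 each). They were Fos with Egr1 (r = 0.770), Fos with Atf3 (0.682), Atf3 with Egr1 (0.682), Jun with Atf3 (0.689) and Jun with Junb (0.691). Junb with Jund was then at 0.601 (adjusted p = 0.0513). The share of all pairs of tested genes with such r values without these libraries was not measured.

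Outside the 8 genes, the highest r with Fos belonged to ENSRNOG00000014350, at 0.854 over the 20 libraries (rho = 0.838), and to ENSRNOG00000003703, at 0.833 (rho = 0.833). They were picked for this likeness, so it carries no test, and no source used here names them. The first had a control mean of 4.99 ± 3.21 CPM and a CFA mean of 13.3 ± 14.9 CPM (ENSRNOG00000014350), a log2 fold change of 1.41 (edgeR adjusted p = 1). ENSRNOG00000003703 averaged 5.49 ± 1.75 and 5.99 ± 1.90 CPM.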

How the data were processed

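Per the labels' protocols, libraries were made from dorsal root ganglia with poly-A selection. The deposited mRNA files hold raw counts per Ensembl gene, per the file headers. The submitters' processing notes name STAR 2.7.0, cutadapt 2.1.0, FastQC 0.11.8, DESeq2 1.29.0 and build rn4 for the series, without roles; how reads were assigned to genes, and whether by strand, was not given in these sources. Values of overlapping or near-identical genes are therefore uncertain. Small RNA and bisulfite files were not used here.

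The test of the counts was that of edgeR 4.0.16 under R 4.3.3 (robust quasi-likelihood F test, TMM, filterByExpr, Benjamini-Hochberg at 0.05 over 15124 genes). Log2 CPM used a prior count of 2. Permutation tests were two-sided with 100000 resamples. The fit and the correlation test were tested on simulated data. Alternatives were DESeq2 1.42.0, other scalings and filters, a replicate block, limma 3.58.1 quality weights, sva 3.50.0 and left-out libraries. The values for the first 2 principal components, the test of r between groups and left-out libraries in the spread test were chosen after seeing the data. The members and lists were chosen with earlier results of these data known. All 8 members are named, with the 2 other genes most like Fos. The planned pathway and cell type lists were not analysed here, since no identifier could be matched to a symbol.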

Additional observations from a re-analysis of the deposited data

Results flagged for a closer look

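In 16 groups of 10 libraries (8 genes in each of 2 treatment groups), 2 values lay far from the rest of their group. Chance flags about 1 in 20 groups where values are normally distributed. The screen used CPM without logs, so that rate need not hold here. Fosb in CFA 1 stood at 4.84 CPM, with the next CFA library at 2.23 CPM. Jund in CFA 3 stood at 77.0 CPM, with the next at 33.3 CPM.

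The r of Fosl1 with 4 other genes differed between groups by a permutation test that a difference in spread can also affect. The share of all pairs of tested genes that differ in this way was not measured. The difference of Fisher's z, CFA minus control, was -1.39 with Fos, -1.38 with Jun, -1.68 with Atf3 and -1.22 with Egr1. Without CFA 3 and controls 1, 3 and 10 the differences were -0.93, -1.21, -1.10 and -0.75, and none passed (permutation adjusted p = 0.446, 0.446, 0.446 and 0.641).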

How the results depend on the processing

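Members called between CFA and control stayed at 0 of 8 in all settings run, or 0 of 7 with at least 1 CPM in 10 libraries, where Fosb was not tested. The calls over all genes were 5 in the main setting, 2 with the replicate block, 9 with quality weights (7 higher, 2 lower) and 12 with surrogate variables (10 higher, 2 lower). The sign of Fosl1 turned, at -0.0049 with upper-quartile factors, -0.0036 with the stricter filter, -0.027 with surrogate variables, -0.053 without CFA 8, 9 and 10 and -0.0062 without CFA 3 and controls 1, 3 and 10, and lay between -0.056 and 0.060 when single libraries were left out. Quality weights turned Fos to -0.13 and Atf3 to -0.082. The cause of these turns was not tested.

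Pairs that co-vary numbered 15 of 28, but 8 with Spearman's rho, 7 within controls, 2 within CFA and 5 without CFA 3 and controls 1, 3 and 10; the last 3 use fewer libraries. With single libraries left out they numbered 10 to 17, with the fewest without control 3 or CFA 8. The share of all pairs of tested genes was measured only in the main setting. Fosl1 with Jun turned to -0.153 within CFA. Genes with a difference in spread numbered 1, but 0 with the variance ratio, 0 without CFA 3 and controls 1, 3 and 10, and 0 to 1 without single libraries. Differences of r between groups numbered 4, but 0 without those 4 libraries and 0 to 5 without single ones. For depth, 0 genes passed in all settings.

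The labels speak of randomly chosen pairs of rats but do not say that numbers mark them. Deviations of same-numbered libraries had r between -0.361 and 0.564, and 3 of 10 controls were closest to their own number. With the replicate number as a block, log2 fold changes lay between 0.027 for Fosl1 and 0.58 for Fosb, with 0 of 8 called.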
